A study of Mus musculus with 8 samples.

Results

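Cohesin genes were the subject here: 7 genes, of which 2 encode meiosis-specific subunits (Rec8 and Stag3) and 5 encode general subunits or the loader (Rad21, Stag1, Stag2, Smc3 and Nipbl). They were chosen by gene name out of the 27962 gene names on the array, and all 7 were among the 17593 genes that could be tested. The 7 genes had 17 probes: Rec8, Rad21 and Smc3 had 2 each, Stag2 and Nipbl 3 each, Stag1 4 and Stag3 1. The array files print Rec8 under the older name Rec8L1, and its RefSeq accession gave the present symbol.

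Testes of C57BL/6 129SV mixed mice at postnatal day 14, all carrying a Dazl-GFP-V5 fusion, were the source of RNA that was precipitated in the native state, without crosslinking. Dazl is an RNA-binding protein of germ cells. The 8 single-colour Agilent arrays form 4 groups of 2: RNA precipitated with anti-V5, RNA precipitated with anti-GFP, a mock precipitate with normal mouse IgG, and the input total RNA. Every group came from testes with the fusion, the IgG and input controls too, and the promoter that drives the fusion is not given in the sources used here. The series' design text names a PABP1 antibody where the sample labels name anti-GFP, and the sample labels were followed. Short descriptions of V5 replicate 1 and input replicate 2 name the opposite kind of RNA from their titles, so values without those arrays are given where they end a call. Nothing in the labels says whether the 2 arrays of a group came from separate mice, so p-values measure the spread between these arrays, which may be technical.

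Cohesin is a ring of SMC proteins closed by a kleisin, which holds sister chromatids together from replication until separase cuts the kleisin. In germ cells that enter meiosis, Rec8 takes the place of the kleisin Rad21, Stag3 that of Stag1 and Stag2, and Smc1b in part that of Smc1a, and the meiotic rings also carry the chromosome axes of meiotic prophase. Smc3 is common to mitotic and meiotic rings, and Nipbl, with its partner Mau2, loads rings onto chromatin. On assembly GRCm38.p6, Rec8 lies at chr14:55618002-55625395, Stag3 at chr5:138272514-138312397, Rad21 at chr15:51962604-51993538, Stag1 at chr9:100597709-100958544, Stag2 at chrX:42149297-42277186, Smc3 at chr19:53600396-53645831 and Nipbl at chr15:8289824-8465315.

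On each array 57.2% to 62.2% of the 43379 non-control spots were well above background and 0 spots were saturated. Values below are scaled signals, the processed signal divided by the 75th percentile of its array, and fold changes are differences of log2 scaled signals from a limma fit over all genes, with Benjamini-Hochberg adjustment over all 17593 genes and a threshold of 0.05. The probe with the highest mean signal stands for a gene unless a probe is named. The V5 and GFP arrays were on one slide and the IgG and input arrays on another, so V5 or GFP against IgG or input cannot be told apart from the slide. Dazl itself read 7.16 and 6.53 in the V5 precipitates, 10.4 and 9.11 in the GFP precipitates, 4.02 and 2.99 in the IgG precipitates and 14.2 and 15 in the input. The lysate held more than germ cells: all 8 measured Sertoli cell markers were well above background on both input arrays.

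The meiosis-specific pair lay below the mock precipitate in both Dazl precipitates, while none of the 5 general genes was called lower than IgG. Against IgG, 2 of the 7 genes were called lower and 1 higher in the V5 precipitates, where 40.3% of all genes were called lower and 16.7% higher, 57% in either direction. In the GFP precipitates 2 were called lower and 3 higher, where 52.1% of all genes were called lower and 21.6% higher, 73.7% in either direction. The median log2 fold change over IgG was -0.38 for the meiosis-specific pair and 0.07 for the 5 general genes with V5, and -0.58 and 0.24 with GFP, beside -0.21 and -0.33 for all genes. Both comparisons use the same IgG arrays, and the difference between the kinds of gene was not tested. All 5 general genes lay above the median of all genes in both comparisons. With normexp background correction 0 genes of the whole array were called in V5 against IgG (limma, 3694 at an unadjusted p under 0.05), and of the 5 calls with GFP that of Rec8 was kept and those of Stag3, Rad21, Stag1 and Stag2 were lost. The balance of calls over all genes turned on the scaling: of the genes called, 29.3% were higher in V5 than in IgG by the 75th percentile, 39.5% after quantile normalization and 85.2% by the spike-in spots. For GFP against IgG these were 29.3% by the 75th percentile, 46.6% with normexp background correction and 73.2% by the spike-in spots.

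**Figure D1:**
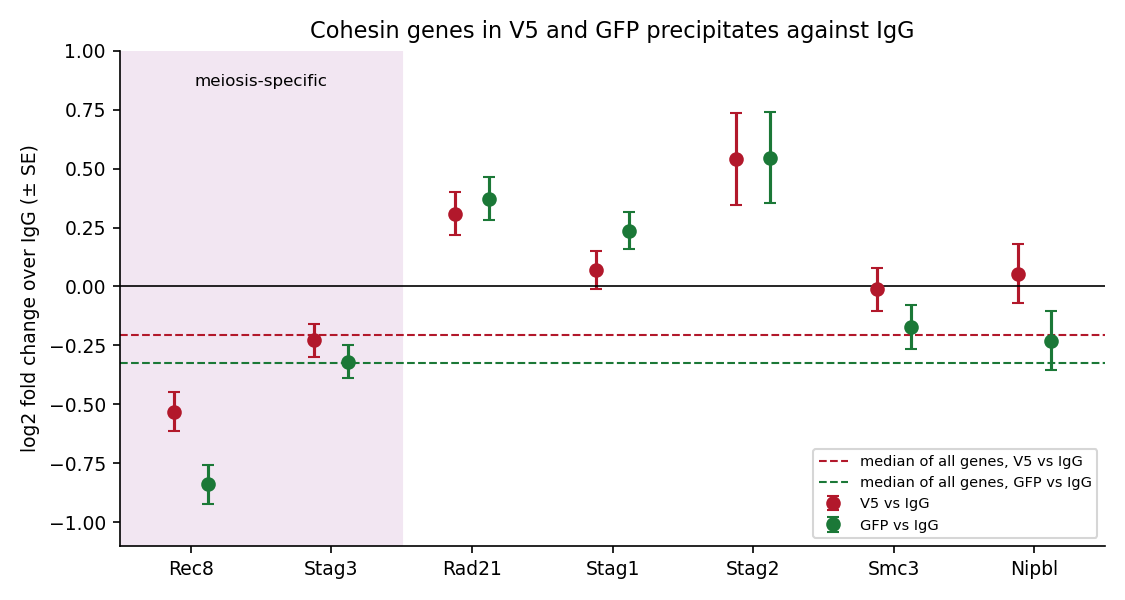
Log2 fold change over IgG (vertical axis) of the 7 cohesin genes in V5 (red) and GFP (green) precipitates, with standard errors from limma and dashed lines at the median of all genes, -0.21 for V5 and -0.33 for GFP. Rec8 lay below both lines and Stag3 on them (Stag3 and Smc3, and Nipbl with GFP, lay above 0 with spike-in scaling). Rad21 and Stag2 lay above 0 in both by the brightest probe, while the other Stag2 probes gave -0.07 and -0.11 with GFP.

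Rec8, the meiosis-specific kleisin, read 15.7 and 15 in the V5 precipitates, 12.1 and 12.6 in the GFP precipitates, 20.7 and 23.7 in the IgG precipitates, and 13.9 and 14.1 in the input. Its order of levels was therefore IgG, V5, input and GFP, with IgG called apart from V5 and no call among the other 3 groups. Rec8 was 1.45-fold lower in V5 than in IgG (log2 -0.53 ± 0.08 SE, n = 2 arrays each, limma adjusted p = 0.00426). It was 1.79-fold lower in GFP than in IgG (log2 -0.84 ± 0.08 SE, limma adjusted p = 0.000351). Both arrays of each Dazl precipitate lay below both IgG arrays, and both calls held with each array left out in turn. Without the 2 arrays of conflicting descriptions the V5 value was -0.56, with a limma adjusted p of 0.0647.

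The IgG arrays, not the input, set Rec8 apart. IgG exceeded the input 1.58-fold (log2 0.66, limma adjusted p = 0.00039), and neither V5 (log2 0.13, limma adjusted p = 0.189) nor GFP (log2 -0.18, limma adjusted p = 0.0933) differed from the input by a call. Scaled to the 239 spike-in spots instead, IgG against input turned to -0.22 and V5 against IgG became -0.20, with limma adjusted p-values of 0.0885 and 0.201. By the same spots Rec8 was called lower than the input in V5 (-0.42) and in GFP (-0.65), and the GFP value was also called without either IgG array (-0.18, limma adjusted p = 0.0309). That scaling moved the median of all genes to 0.13 in V5 against IgG and to -0.67 in IgG against input, from -0.21 and 0.22 with the 75th percentile. Relative to the median of all genes, Rec8 stood at -0.33 in V5 against IgG, -0.52 in GFP against IgG and 0.45 in IgG against input. Among all genes, 14.2% had a lower value than Rec8 in V5 against IgG and 11.2% in GFP against IgG. Its second probe, with 3.28 and 3.23 in V5, 2.63 and 2.7 in GFP, 4.54 and 4.98 in IgG and 2.56 and 2.64 in the input, gave nearly the same differences from IgG, -0.55 and -0.84. On that probe V5 was 1.25-fold higher than the input (log2 0.32, limma adjusted p = 0.00692).

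Stag3, the meiosis-specific STAG subunit, read 8.77 and 9.47 in V5, 8.38 and 8.73 in GFP, 10.9 and 10.5 in IgG, and 10.3 and 9.99 in the input. The order was IgG, input, V5 and GFP, and no neighbours in it differed by a call. Stag3 was 1.17-fold lower in V5 than in IgG (log2 -0.23 ± 0.07 SE, limma adjusted p = 0.0314) and 1.25-fold lower in GFP than in IgG (log2 -0.32 ± 0.07 SE, limma adjusted p = 0.00606). The groups did not overlap, but relative to the median of all genes the values were only -0.02 and 0.005, and with spike-in scaling they turned to 0.10 and 0.10. The V5 call was lost on leaving out any of 7 of the 8 arrays, all but IgG replicate 2, with values between -0.28 and -0.17. It was also lost without the 2 arrays of conflicting descriptions, at -0.17. GFP lay below the input (log2 -0.24, limma adjusted p = 0.0177), a call that was lost without input replicate 1 (-0.22), input replicate 2 (-0.26) or GFP replicate 1 (-0.21).

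The stretches upstream of the transcript starts of the meiosis-specific pair are shown because these genes lay on the same side of IgG. The sequences are the 250 bases before a transcript start in RefSeq's promoter table for GRCm38.p6, plus strand, for Rec8 at chr14:55617916-55618165 and for Stag3 at chr5:138280259-138280508. Capitals mark CCAAT or its reverse complement ATTGG, the box bound by NF-Y, and TCCCGC or GCGGGA, a core of E2F sites. A gene's span runs from its outermost transcript start, and the start used in the promoter table lies inside the span given above for both genes, so the Rec8 window reaches into that span and the Stag3 window lies within it.
Rec8: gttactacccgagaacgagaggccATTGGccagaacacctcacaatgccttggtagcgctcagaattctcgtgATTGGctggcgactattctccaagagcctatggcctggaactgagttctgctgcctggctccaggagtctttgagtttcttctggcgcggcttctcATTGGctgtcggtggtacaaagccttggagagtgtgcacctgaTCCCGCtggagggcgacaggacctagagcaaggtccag
Stag3: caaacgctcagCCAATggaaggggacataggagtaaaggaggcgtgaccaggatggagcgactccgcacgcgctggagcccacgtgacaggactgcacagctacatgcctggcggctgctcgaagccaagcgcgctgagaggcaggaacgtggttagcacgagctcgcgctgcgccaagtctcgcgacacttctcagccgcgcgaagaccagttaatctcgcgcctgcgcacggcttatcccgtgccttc
The Rec8 window held 3 CCAAT boxes, all as ATTGG, and 1 TCCCGC. The Stag3 window held 1 CCAAT box and 0 TCCCGC. Among 32851 such windows, 33.8% held at least 1 CCAAT box, 2.79% at least 3, and 16.9% at least 1 TCCCGC, searched on both strands, and the motifs did not overlap. Of the 7 genes 4 had an entry: the Stag1 window held 1 of each motif, and the Smc3 window 0 CCAAT boxes and 1 TCCCGC. Rad21, Stag2 and Nipbl are named only. The arrays did not measure these stretches, and a match is only a description of the letters.

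Rad21, the kleisin of mitotic cohesin, moved the other way from Rec8. It read 22 and 20.2 in V5, 22.4 and 21.7 in GFP, 18.4 and 15.8 in IgG, and 20.3 and 20.2 in the input. GFP, V5, input and IgG was the order, and only the step from input to IgG passed the test. Rad21 was 1.24-fold higher in V5 than in IgG (log2 0.31 ± 0.09 SE, limma adjusted p = 0.0286) and 1.29-fold higher in GFP than in IgG (log2 0.37 ± 0.09 SE, limma adjusted p = 0.0101). Neither precipitate overlapped IgG, and V5 overlapped the input. The V5 call was lost on leaving out either input array, IgG replicate 2 or either V5 array, with values between 0.20 and 0.42, and without the arrays of conflicting descriptions, at 0.25. The second Rad21 probe gave larger differences from IgG, 0.58 for V5 and 0.82 for GFP, with limma adjusted p-values of 0.00881 and 0.00116. Against the input that probe was 2.03-fold lower in IgG and 1.36-fold lower in V5 (limma adjusted p = 0.000255 and 0.0124), with GFP at -0.21 and not called. The brightest probe gave log2 values of -0.25, 0.06 and 0.12 for IgG, V5 and GFP against the input.

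Stag1, a STAG subunit of general cohesin, read 3.57 and 3.21 in V5, 3.94 and 3.68 in GFP, 3.27 and 3.19 in IgG, and 3.3 and 3.44 in the input. The order was GFP, V5, input and IgG, with no neighbours apart by a call. GFP was 1.18-fold higher than IgG (log2 0.24 ± 0.08 SE, limma adjusted p = 0.0332), without overlap, and V5 overlapped IgG (log2 0.07 ± 0.08 SE, limma adjusted p = 0.484). The GFP call was lost on leaving out any of 6 arrays, all but the V5 pair, with values between 0.19 and 0.29, and at 0.24 without the arrays of conflicting descriptions. The 3 dimmer probes of Stag1 read higher over IgG than the brightest, at 0.50, 0.56 and 0.72 with V5 and 0.62, 1.11 and 0.59 with GFP. Of those 6 values 5 passed the test over all probes, and the V5 value of 0.56 did not (limma adjusted p = 0.156). On the dimmest of them 1 of the 2 IgG arrays was not well above background.

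Stag2, the other general STAG subunit and the X-linked one, stood furthest from the input of the 7 genes by the probe that stands for each. It read 0.166 and 0.184 in V5, 0.173 and 0.178 in GFP, 0.149 and 0.0965 in IgG, and 0.584 and 0.537 in the input. All 3 precipitates lay far below the input, with both IgG arrays lowest. Stag2 was 3.21-fold lower in V5 than in the input (log2 -1.68 ± 0.19 SE, limma adjusted p = 0.000306), 3.2-fold lower in GFP (limma adjusted p = 0.000283) and 4.67-fold lower in IgG (limma adjusted p = 7.5e-05). With normexp background correction these calls were lost, at -0.93 in V5, -1.01 in GFP and -1.22 in IgG. Over IgG, GFP was 1.46-fold higher (log2 0.55 ± 0.19 SE, limma adjusted p = 0.0395) and V5 likewise by size but not by the test (log2 0.54 ± 0.19 SE, limma adjusted p = 0.0511). Those values turn on the IgG arrays: without IgG replicate 1 they were 0.86 for both, and without IgG replicate 2 they were 0.23 for both. The GFP call was lost on leaving out any array but IgG replicate 1, and the V5 value became a call without that one (limma adjusted p = 0.00308).

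Smc3, the SMC subunit common to mitotic and meiotic rings, read 6.13 and 5.9 in V5, 5.58 and 5.19 in GFP, 6.56 and 5.61 in IgG, and 7.47 and 7.51 in the input. The input was highest, followed by IgG, V5 and GFP, and only the input stood apart from its neighbour. Smc3 did not differ from IgG by a call, at -0.01 ± 0.09 SE for V5 and -0.17 ± 0.09 SE for GFP (limma adjusted p = 0.912 and 0.131), and both were above 0, at 0.32 and 0.24, with spike-in scaling. Without IgG replicate 2 the GFP value was -0.28 and passed. Against the input it was 1.25-fold lower in V5, 1.39-fold lower in GFP and 1.24-fold lower in IgG (limma adjusted p = 0.0183, 0.00306 and 0.0212). The V5 call was lost without either input or either V5 array (-0.35 to -0.29), and at -0.34 without the arrays of conflicting descriptions.

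Nipbl, the cohesin loader, read 0.971 and 1.05 in V5, 0.803 and 0.856 in GFP, 1.1 and 0.858 in IgG, and 1.27 and 1.18 in the input. The order was input, V5, IgG and GFP, with no neighbours apart by a call. It did not differ from IgG by a call, at 0.05 ± 0.13 SE for V5 and -0.23 ± 0.13 SE for GFP (limma adjusted p = 0.732 and 0.141), and the GFP value turned to 0.19 with spike-in scaling. Without IgG replicate 2 the GFP value was -0.41 and passed (limma adjusted p = 0.0113). GFP was 1.47-fold lower than the input (log2 -0.56 ± 0.13 SE, limma adjusted p = 0.00634).

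**Figure D2:**
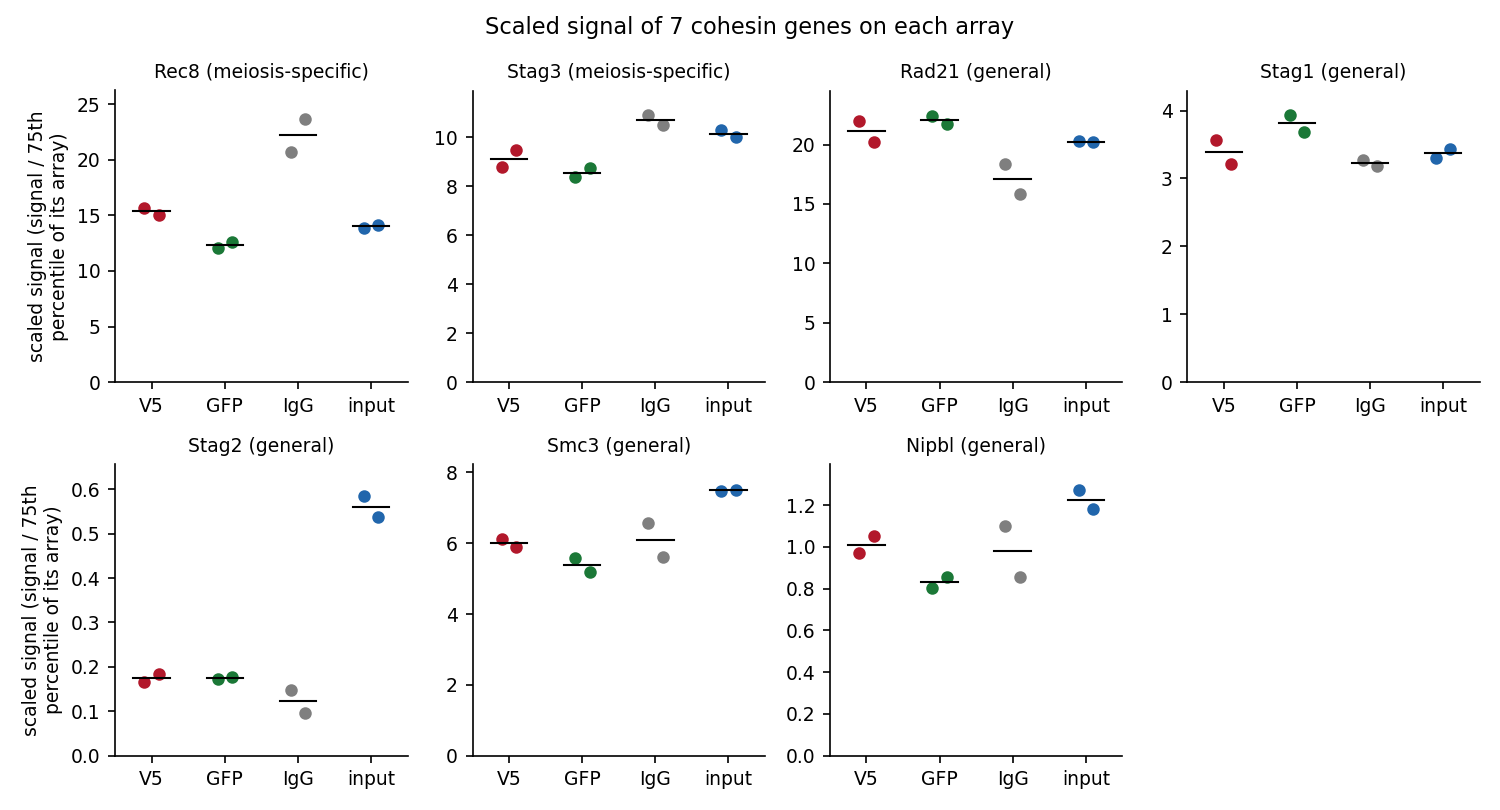
Scaled signal (vertical axis, from 0) of each cohesin gene on the 2 arrays of the V5 (red), GFP (green), IgG (grey) and input (blue) groups, points for arrays and bars for group means. Rec8 read 20.7 and 23.7 in IgG against at most 15.7 elsewhere, and Stag2 read at least 0.537 in the input against at most 0.184 elsewhere.

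Against the input, general genes were lower or not called, and 0 of the 7 genes were called higher with V5 or GFP (limma, 0 also at an unadjusted p under 0.05). With V5, 2 were called lower (Stag2 and Smc3), where 35.5% of all genes were called lower, 37.7% higher and 73.2% either way. With GFP, 4 were called lower (Stag3, Stag2, Smc3 and Nipbl), where 39.1% of all genes were called lower, 36.2% higher and 75.2% either way. For IgG against input, a comparison within 1 slide, 1 gene was called higher (Rec8) and 3 lower (Rad21, Stag2 and Smc3), where 43.9% of all genes were called higher, 29.3% lower and 73.2% either way. All 5 general genes lay below the median of all genes, 0.22, in IgG against input. By its brightest probe Rad21 was 1.19-fold lower in IgG (log2 -0.25, limma adjusted p = 0.0457), against 2.03-fold by its second. The call by the brightest probe was lost when only those arrays were fitted (limma adjusted p = 0.0934), as was that of Smc3 (limma adjusted p = 0.0542). The Rad21 call was lost on leaving out any array but IgG replicate 1, and that of Smc3 without either input array or IgG replicate 2. The Rad21 value was -0.14 without IgG replicate 2 and -0.36 without IgG replicate 1, and that of Smc3 was -0.19 and -0.42. With spike-in scaling Rad21 and Stag1 also lay below the input by a call in V5 (-0.49 and -0.55) and in GFP (-0.35 and -0.29), where their values with the 75th percentile were above 0. Over all genes the share of calls that were higher was 51.4% in V5 against input, 48.1% in GFP against input and 60% in IgG against input by the 75th percentile, and 19%, 23% and 12.8% by the spike-in spots.

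The V5 and GFP precipitates, which shared a slide, differed by a call for 0 of the 7 genes (limma), where 6.76% of all genes were called higher and 7.17% lower, 13.9% either way. That background of 2452 genes was itself unsteady, at 2 genes with those 4 arrays fitted alone and 3 to 4999 on leaving out 1 array. Of those calls over all genes 48.5% were higher in V5 by the 75th percentile, 36.7% with median scaling and 11.6% by the spike-in spots. With an unadjusted p under 0.05 there was 1 such gene, Rec8, which was 1.24-fold higher in V5 than in GFP (log2 0.31 ± 0.08 SE, limma adjusted p = 0.0544). Its 2 arrays of each group did not overlap, and the call was gained without either IgG array (limma adjusted p = 0.0251). Nipbl was next, 1.22-fold higher in V5 (log2 0.28 ± 0.13 SE, limma adjusted p = 0.15), also without overlap, and it too passed without either IgG array (limma adjusted p = 0.0444). The other 5 genes differed by -0.17 to 0.16 on the log2 scale, with standard errors of 0.07 to 0.19.

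Within an array the meiosis-specific gene could be set against its general counterpart, a ratio that no single scaling factor of the array moves. Quantile normalization and normexp background correction are not single factors and can move it. These pairs were chosen after values were seen, and levels of different probes cannot be compared, so only changes of the ratio between groups are meaningful. The log2 ratio of Rec8 to Rad21, the pair of kleisins, was -0.49 and -0.43 in V5, -0.88 and -0.78 in GFP, 0.17 and 0.59 in IgG, and -0.54 and -0.52 in the input. It was 1.79-fold lower in V5 than in IgG and 2.32-fold lower in GFP than in IgG, and 1.88-fold higher in IgG than in the input, without overlap in any of the 3. V5 and input differed by 0.07 on the log2 scale, with V5 higher on both arrays.

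The ratio of Stag3 to Stag1 was 1.30 and 1.56 in V5, 1.09 and 1.25 in GFP, 1.74 and 1.72 in IgG, and 1.64 and 1.54 in the input, on the log2 scale. It was lower than IgG on both arrays of V5 (1.23-fold) and of GFP (1.47-fold), and V5 overlapped the input. The ratio of Stag3 to Stag2 was 5.73 and 5.68 in V5, 5.60 and 5.62 in GFP, 6.19 and 6.76 in IgG, and 4.14 and 4.22 in the input. Both Dazl precipitates again lay below IgG, and all 3 precipitates lay above the input. Both ratios of Stag3 rest on the brightest probe of each gene, and against the input they depend on the probe. The third Stag2 probe read -0.01 in V5, -0.18 in GFP and -0.07 in IgG against the input, with no call. The brightest gave -1.68, -1.68 and -2.22 and the second -2.49, -2.81 and -2.75. On the second Stag1 probe GFP was called lower than the input (-0.53), where the brightest gave 0.18. With 2 arrays a group, the smallest two-sided p that an exact permutation test of a ratio allows is 0.333, so none is given.

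**Figure D3:**
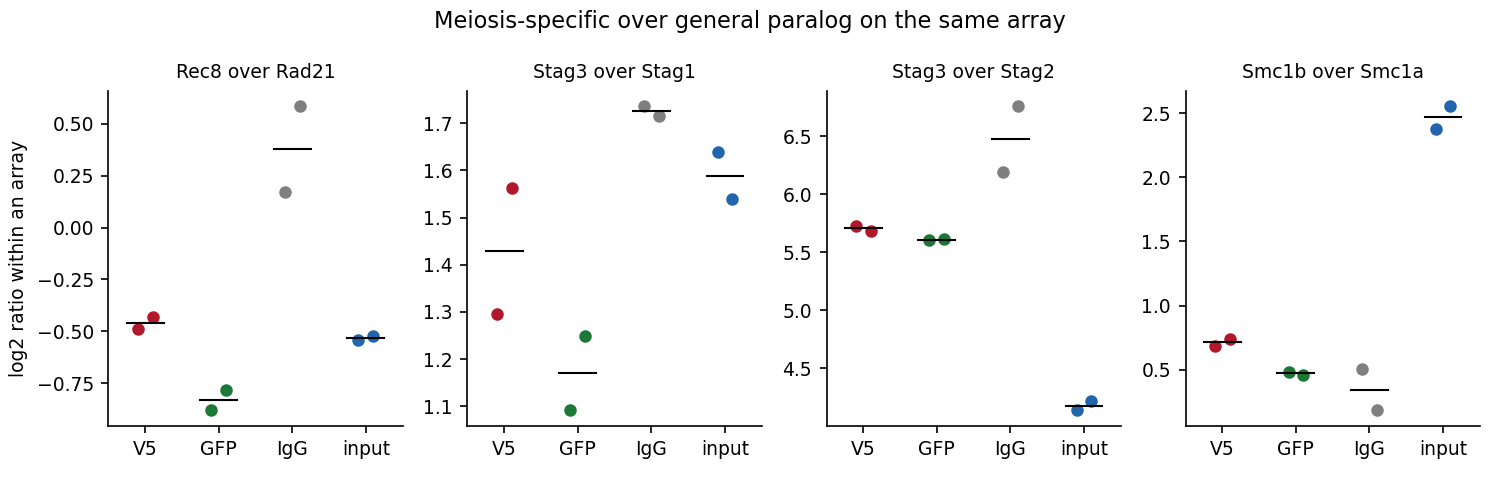
Log2 ratio within an array (vertical axis, which does not start at 0) of a meiosis-specific gene to its general counterpart, points for arrays and bars for means of V5 (red), GFP (green), IgG (grey) and input (blue). The ratio of Rec8 to Rad21 stood higher on both IgG arrays than on the other 6 arrays, and Smc1b over Smc1a stood highest in the input.

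Of the 17 probes 16 were kept, since the dimmest Nipbl probe was not well above background in any group. Over all 6 comparisons the probes of 1 gene did not always read alike. Against IgG, 4 probes were called higher and 3 lower with V5, where 17.8% and 35.6% of all probes were, 53.4% either way. With GFP 7 were called higher and 4 lower, where 23.6% and 46.8% were, 70.4% either way, and 1 of the 4 was the dim Smc3 probe, not well above background in either group. Against the input 8 probes were called lower with V5 and 8 with GFP, and 10 with IgG, where 37.6%, 39.9% and 33% of all probes were and 72.4%, 74.4% and 73.2% were called either way. Each of these counts of lower probes includes the second probes of Smc3 and Nipbl. Those were well above background only in the input and were kept only through it. On the other side 1, 0 and 2 were called higher, all 3 of them Rec8 values, where 34.8%, 34.5% and 40.2% of all probes were. Between V5 and GFP the smallest limma adjusted p of the 16 probes was 0.0527, for the second Rec8 probe, where 4.71% of all probes were called higher and 6.77% lower, 11.5% either way.

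The 2 probes of Smc3 differed. Its dimmer probe read 0.0158 and 0.0201 in V5, 0.0122 and 0.0113 in GFP, 0.0246 and 0.018 in IgG, and 0.238 and 0.19 in the input. It was well above background only in the input, and it passed the filter only through that group. The input was at least 9.01-fold brighter than V5, at least 8.25-fold brighter than GFP and at least 7.52-fold brighter than IgG. Such a bound sets the mean of the bright group against the lowest signal counted as well above background on each dim array. The brightest Smc3 probe differed from the input at most 1.39-fold. Nipbl had a like probe, on which the input was at least 2.07-, 1.9- and 1.73-fold brighter than V5, GFP and IgG. Both probes were kept only because they were bright in the input, so no p-value against it is given for them.

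Stag2 and Stag1 also differed by probe. The second Stag2 probe was 5.63-fold lower in V5 than in the input, 7.03-fold lower in GFP and 6.71-fold lower in IgG (limma adjusted p = 1.47e-05, 7.83e-06 and 1.05e-05). The third differed from the input by -0.01, -0.18 and -0.07 on the log2 scale in the same order, with no call. For Stag1, IgG against input was -0.06 on the brightest probe and -1.15, -1.38 and -0.74 on the others. Where each probe lies on its transcript is not given in the files, and its part in these gaps was not tested. Averaging all kept probes of a gene gave V5 over IgG a call for Stag1, at 0.46, and took that of GFP over IgG from Stag2, at 0.12.

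**Figure D4:**
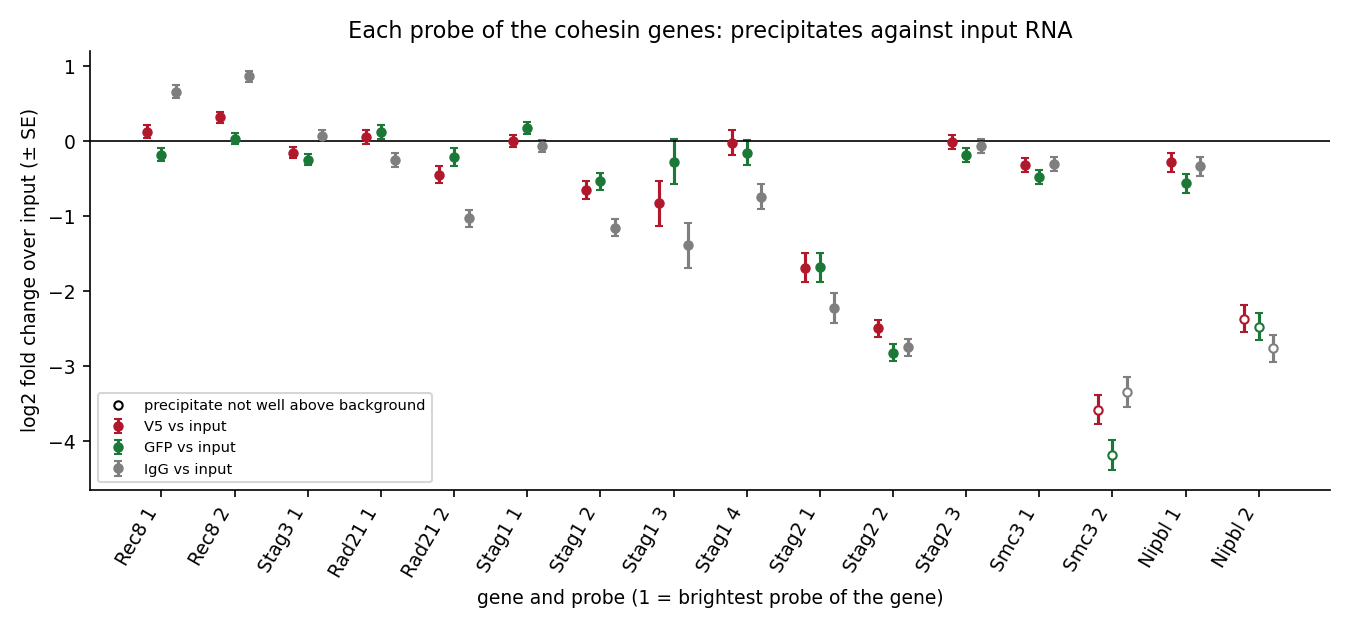
Log2 fold change over the input (vertical axis) of each of the 16 kept probes, numbered by brightness within a gene, in V5 (red), GFP (green) and IgG (grey) with standard errors from limma; open points mark a precipitate not well above background, where the value is no measure of size. The second Stag2 probe lay at -2.49 in V5, -2.81 in GFP and -2.75 in IgG, while the third lay at -0.01, -0.18 and -0.07.

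The rest of the core ring could be followed through Smc1a and Smc1b, since Rad21l has no probe by that name. Smc1a, the general SMC1, read 14.8 and 13.6 in V5, 13.8 and 13.5 in GFP, 18.5 and 23.4 in IgG, and 6.51 and 6.07 in the input. It was lower than IgG in V5 (log2 -0.56 ± 0.12 SE, limma adjusted p = 0.0102) and in GFP (log2 -0.61 ± 0.12 SE, limma adjusted p = 0.00386), though general, and it exceeded the input in all 3 precipitates. With spike-in scaling its values against IgG were -0.22 and -0.19, neither called (limma adjusted p = 0.264 and 0.278). Smc1b, the meiosis-specific SMC1, read 23.8 and 22.7 in V5, 19.2 and 18.6 in GFP, 26.3 and 26.6 in IgG, and 33.9 and 35.8 in the input. It was lower than IgG in V5 (log2 -0.19 ± 0.07 SE, limma adjusted p = 0.0499) and in GFP (log2 -0.48 ± 0.07 SE, limma adjusted p = 0.000924), and with spike-in scaling these values were 0.15 and -0.06, neither called. The log2 ratio of Smc1b to Smc1a was 0.69 and 0.74 in V5, 0.49 and 0.46 in GFP, 0.51 and 0.18 in IgG, and 2.38 and 2.56 in the input. All precipitates, IgG too, stood far below the input on this ratio. V5 was 1.29-fold higher than IgG, without overlap, and GFP overlapped IgG. This went the other way from the ratios of Rec8 and Stag3 above, which lay below IgG in both Dazl precipitates.

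Among all 33 listed regulators and relatives of cohesin, 28 were measured. With V5 8 were called higher than IgG and 5 lower, with a median of 0.10, and with GFP 10 were called higher and 9 lower, with a median of 0.04, beside medians of -0.21 and -0.33 for all genes. Over all genes 16.7% were called higher and 40.3% lower with V5, and 21.6% and 52.1% with GFP. Spike-in scaling gave 15 higher and 0 lower with V5 and 15 higher and 1 lower with GFP, while normexp background correction, under which 0 genes of the whole array were called with V5, gave 3 higher and 1 lower with GFP. The calls with GFP that normexp kept were those of Esco2, Espl1, Smc6 and Ndnl2. The genes that set up or remove Smc3 acetylation held the highest value: Esco2, an acetyltransferase of Smc3, read 0.58 and 0.542 in V5, 0.695 and 0.616 in GFP, 0.306 and 0.193 in IgG, and 0.963 and 0.935 in the input. It was higher than IgG in V5 (log2 1.21, limma adjusted p = 0.00515) and in GFP (log2 1.43, limma adjusted p = 0.00105), yet below the input. Esco1, the other acetyltransferase, was called with GFP (log2 0.60, limma adjusted p = 0.0426) and read 0.52 with V5 (limma adjusted p = 0.0821). The deacetylase Hdac8 was not called with either, at -0.03 and -0.14.

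Of 5 measured genes of loading, release and positioning, 1 was called higher and 1 lower than IgG with each antibody. The shares over all genes were 16.7% higher and 40.3% lower with V5, and 21.6% and 52.1% with GFP. Pds5b, a regulator bound to the ring, was higher (log2 0.32 and 0.43 for V5 and GFP, limma adjusted p = 0.0359 and 0.00809). Mau2, the partner of Nipbl, was lower (log2 -0.35 and -0.36, limma adjusted p = 0.0317 and 0.0215), with the GFP value at 0.06 under spike-in scaling. Wapal, which releases cohesin, and Ctcf, which positions it, were not called, at 0.21 and 0.25 with V5 and 0.13 and 0.22 with GFP.

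Of 6 measured genes of protection and cleavage, 2 were called higher and 1 lower with V5, where 16.7% and 40.3% of all genes were. With GFP 2 were called higher and 2 lower, where 21.6% and 52.1% of all genes were. Espl1, the separase that cuts kleisins, was lower (log2 -0.52 and -0.79, limma adjusted p = 0.00793 and 0.000783), while its inhibitor Pttg1, securin, was higher (log2 0.17 and 0.35, limma adjusted p = 0.0465 and 0.00234). Sgol2, a shugoshin that shields Rec8 at centromeres in meiosis I, was higher by its brightest probe (log2 0.36 and 0.42, limma adjusted p = 0.0295 and 0.0127), with its other probe on the opposite side. Gsg2, the haspin kinase, was lower by a call with GFP (log2 -0.41, limma adjusted p = 0.0116, against -0.25 and 0.0793 with V5), a value that stood at 0.01 with spike-in scaling.

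Among 6 measured condensin genes, the sister complex of cohesin, 2 were called higher and 1 lower with V5 and 2 of each with GFP. Beside these counts, and those of the Smc5/6 complex below, 16.7% of all genes were called higher and 40.3% lower with V5. With GFP these shares were 21.6% and 52.1%. Smc2 was higher (log2 0.68 and 0.79, limma adjusted p = 0.0203 and 0.0075), as was the condensin II subunit Ncapg2 (log2 0.62 and 0.76, limma adjusted p = 0.032 and 0.0109). Ncapd2 was lower by a call in both (log2 -0.28 and -0.28, and 0.05 and 0.14 with spike-in scaling). Ncaph, the kleisin of condensin I, was lower by a call in GFP (log2 -0.52, limma adjusted p = 0.000969) and read -0.15 in V5. Of 6 measured genes of the Smc5/6 complex, 2 were called higher and 0 lower with V5, and 3 higher and 2 lower with GFP. Smc6 and Ndnl2 were higher in both, at 0.41 and 0.37 with V5 and 0.55 and 0.71 with GFP. Nsmce1 was called with GFP (log2 0.49, limma adjusted p = 0.001) and read 0.14 with V5, and Smc5 was called lower with GFP at -0.33, which turned to 0.09 with spike-in scaling, as did Eid3, named after its values were seen (log2 -0.28, limma adjusted p = 0.0358, and 0.13 with spike-in scaling). Besides Sgol2, kept probes of 1 gene disagreed in sign against IgG for Esco1 and Smc2 with both antibodies and for Mau2, Wapal, Smc4 and Smc5 with GFP. Of the cohesin genes chosen at the start, Stag2 and Nipbl did so with GFP.

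**Figure D5:**
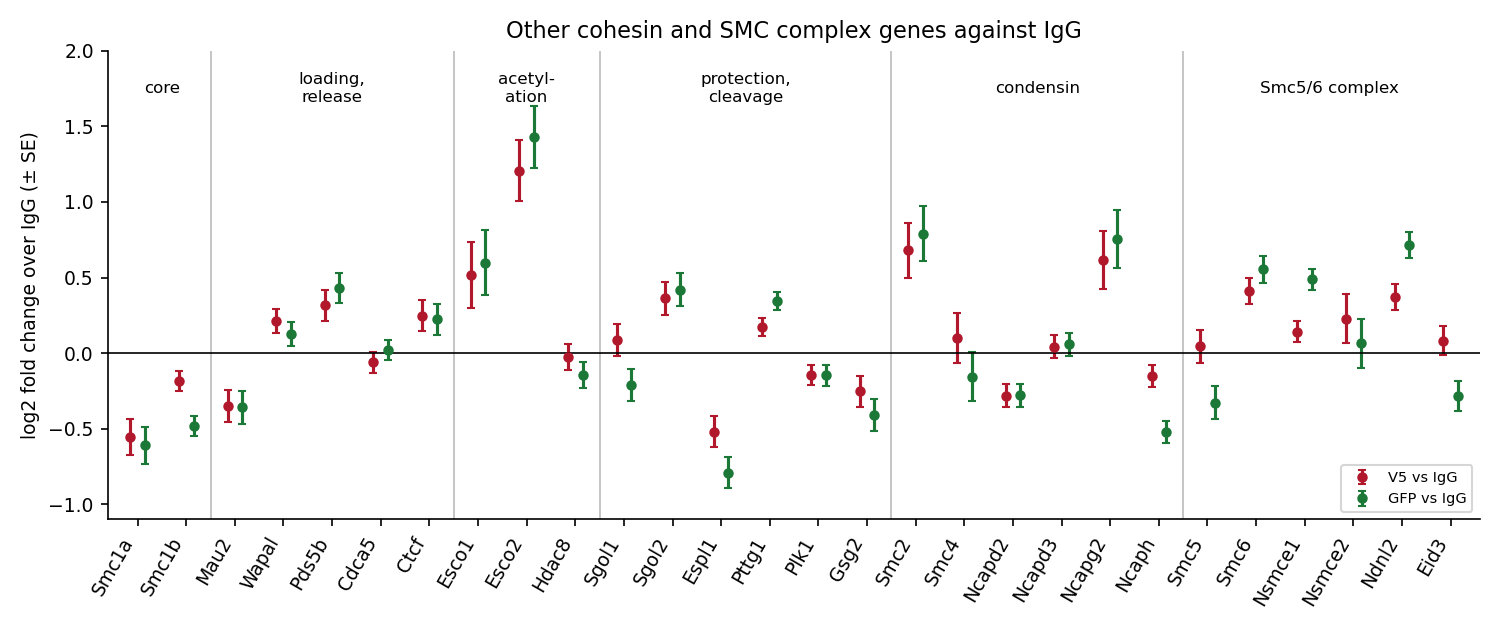
Log2 fold change over IgG (vertical axis) of 28 measured cohesin regulators and SMC complex genes by role, in V5 (red) and GFP (green), with standard errors from limma. Esco2 stood highest at 1.21 and 1.43, and Espl1 lowest with GFP at -0.79. Of the genes called lower here, Smc1b and Ncapd2 with V5 and Mau2, Gsg2, Ncapd2, Smc5 and Eid3 with GFP lay above 0 with spike-in scaling.

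Markers of somatic cells moved with Rec8 against IgG. All 8 Sertoli markers were called lower in GFP and 7 in V5, where 52.1% and 40.3% of all genes were, with summed scaled signals of 72.2 and 70.2 in V5, 60.1 and 59.3 in GFP, 87.9 and 93.5 in IgG, and 85.4 and 88.4 in the input. All 5 measured Leydig and all 5 myoid markers were called lower in both, and of 6 leukocyte and 5 endothelial markers 4 and 4 were with V5 and 5 and 5 with GFP. Summed Leydig signals were 19.7 and 20.5 in V5, 16.9 and 19.8 in GFP, 26.5 and 28.6 in IgG, and 25.3 and 24.7 in the input, and summed myoid signals 22.5 and 25, 18.8 and 19.7, 32.2 and 37.4, and 76.9 and 74.6. Leukocyte sums were 4.26 and 4.57 in V5, 3.32 and 3.74 in GFP, 5.81 and 6.9 in IgG, and 6.49 and 6.32 in the input, and endothelial sums 1.26 and 1.32, 1.17 and 1.19, 1.72 and 1.84, and 1.4 and 1.31. With spike-in scaling 0 of these somatic markers were called lower in V5, while in GFP 2 Sertoli, 1 Leydig, 3 myoid, 2 leukocyte and 2 endothelial markers were. With normexp background correction 1 Sertoli, 4 Leydig, 4 myoid, 2 leukocyte and 0 endothelial markers were called lower in GFP.

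Markers of germ cells differed by stage. All 4 measured spermatogonial markers were called higher than IgG in GFP and 3 in V5, where 21.6% and 16.7% of all genes were. Their summed signals were 70.1 and 70.8 in V5, 98.5 and 87.6 in GFP, 39.1 and 38.9 in IgG, and 79.8 and 78.9 in the input. Most of each sum was Stra8, at 62.8 and 63.6 in V5 and 76.6 and 75.7 in the input. Against the input, V5 was called higher for 2 of the 4 (Kit and Dmrt1) and lower for 1 (Stra8), where 37.7% and 35.5% of all genes were. GFP was called higher than the input for 3 and lower for 0, where 36.2% and 39.1% of all genes were. Of 6 meiotic prophase markers 3 were called higher than IgG with V5 and 4 with GFP. Their summed signals were 3.72 and 3.85, 4.38 and 3.87, 3.3 and 2.57, and 19.2 and 19.8 in V5, GFP, IgG and the input. With normexp background correction 3 spermatogonial markers and 1 prophase marker were called higher than IgG with GFP, and 0 of either with V5. General germ cell markers were called higher for 2 of 4 (Ddx4 and Dazl) and lower for 1 (Tex101) with either antibody, and their summed signals were 190.5 and 202.7 in V5, 178.1 and 177.5 in GFP, 257.4 and 219.1 in IgG, and 228.1 and 233.3 in the input. Most of each sum was Tex101, at 148.2 and 162.2 in V5, 135.6 and 137.8 in GFP, 221.0 and 186.7 in IgG, and 153.8 and 156.7 in the input. Spermatids have not yet formed at this age, and their markers were dim. Of 4 measured spermatid markers 3 were called lower with V5 and 4 with GFP, where 40.3% and 52.1% of all genes were. Their summed signals were 0.306 and 0.308 in V5, 0.227 and 0.199 in GFP, 0.442 and 0.49 in IgG, and 0.486 and 0.463 in the input. Prm2 was well above background on 0 V5 and 0 GFP arrays, and Tnp2 on 0 GFP arrays. With normexp background correction 0 of these markers were called against IgG, and with quantile normalization 1 was called lower with V5 and 2 with GFP. The part of the cell mixture in the results on cohesin was not tested, and fewer cells of a type and less RNA per cell cannot be told apart in bulk RNA.

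The genes whose profile over the 8 arrays was nearest to each member, each profile centred on its own mean, were named by the root mean square difference in log2. For Rec8 they were C1qtnf5 (0.040), Slc16a3 (0.040) and Plekhf1 (0.042), and for Stag3 they were Ppt1 (0.038), Fdx1 (0.039) and Ndrg3 (0.041). None of these was on the other lists. Rad21 lay nearest to Ghitm (0.035), Rngtt (0.040) and Sec11l3 (0.044), and Stag1 to Eif2s3x (0.029), Stx16 (0.031) and Pftk1 (0.037). Stag2 had no neighbour as close by this measure, with Slmap (0.084), Eif2s3y (0.094) and Zfyve16 (0.104). The measure is not scaled to the size of a profile, and the Stag2 profile varied most. Its standard deviation over the arrays was 0.851, beside 0.101 for Stag1 and 0.13 for Stag3. Smc3 lay nearest to Cdkl1 (0.032), Tmem126a (0.047) and Bcar3 (0.048), and Nipbl to Agtr1a (0.048), Slc25a13 (0.055) and Vti1b (0.073).

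The authors' deposited table, whose group means were normalized to the median, was read for its V5, GFP and input columns, and has no IgG mean among them. In the authors' deposited table Rec8 had means of 223.2 in V5, 180.3 in GFP and 170.5 in the input, and a second entry 39.5, 32 and 25.8. Stag3 had 102.1, 101.4 and 93.2, and Rad21 208.8, 232.0 and 164.1, in the same order of the authors' deposited table. By the authors' deposited table Stag3 thus stood above the input, at 1.1 times in V5 and 1.09 times in GFP. With the scaling used here it lay below the input in both (0.9 and 0.845 times) and was called lower in GFP. The cause of this difference was not tested. The second Rad21 entry of the authors' deposited table had 8.62, 10.3 and 9.72, below the input in V5. Stag1 had 31.7, 33.9 and 40.6 on the first of its 4 entries in the authors' deposited table and 33.5, 39.4 and 27.1 on the next. The first entry had the input highest, as did the second Stag1 probe here. The next had the order GFP, V5 and input, which was that of the brightest Stag1 probe here. The brightest Nipbl entry of the authors' deposited table had 11.3, 9.77 and 11.2. In the authors' deposited table Stag2 had 1.97, 1.98 and 5.26, and its second entry had 0.891, 0.752 and 4.13. The brighter Smc3 entry of the authors' deposited table had 57.9, 51.6 and 62.3 and the dimmer 0.189, 0.131 and 1.84. Rec8 stood at 1.31 times the input in V5 and 1.06 times in GFP by the brighter entry of the authors' deposited table. The median scaling applied here gave log2 values of 0.11 and -0.18, and the cause of the gap was not tested.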

How the data were processed

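Each of the 8 arrays was hybridised with one Cy3-labelled sample. The deposited intensity values were made by the authors with Agilent Feature Extraction 9.1.3.1, which subtracted background and detrended each array, per the file headers. A further table of signal means was uploaded by the authors to GeneSifter, normalized to the median and averaged by condition, per the file headers; 6 other value columns of it were not used.

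The processed intensity was scaled to the 75th percentile of the non-control spots of its array and taken to log2. Control and outlier spots were left out, and spots of a probe were averaged. Of 41174 probes, 25629 were kept, those well above background on each array of 1 group or more, and the brightest such probe stood for each of 17593 gene names. Of all 41174 probes, kept or not, 22951 matched RefSeq by accession. The 6 comparisons came from 1 limma 3.58.1 fit (R 4.3.3) over all 8 arrays with group as the only term, 4 residual degrees of freedom and Benjamini-Hochberg adjustment over all genes at 0.05. The procedure was tested on simulated data. The number of arrays limits the precision. Alternatives were normexp background correction (offset 50), quantile, median and spike-in scaling, other probe filters, the mean of all kept probes, the compared groups alone, the replicate number as a block, the slide, and each array left out.

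The 7 genes and all lists were chosen with earlier results of these data known. Named were the 7 genes, the core genes, up to 4 genes of each other list with the smallest p in GFP against IgG, and the 3 genes nearest in profile to each of the 7. Deviations of same-numbered arrays correlated between -0.0749 and 0.107 across groups, so the numbers were not taken to pair the arrays.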

Additional observations from a re-analysis of the deposited data

How the results depend on the processing

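Log2 fold changes of the 7 genes in 6 comparisons, 42 values, were recomputed under each alternative, and where one changed the cause was not tested unless fewer arrays or genes were fitted. The replicate number as a block left all 42 on their side of the threshold but cut V5 against GFP to 2 genes called, of 2452. The calls of Rec8 in GFP against IgG and of Smc3 in GFP against input were kept under every alternative run. With normexp background correction, these lost their call: V5 against IgG for Rec8 (-0.62), Stag3 (-0.29), Rad21 (0.24), GFP against IgG for Stag3 (-0.29), Rad21 (0.41), Stag1 (0.28), Stag2 (0.21), V5 against input for Stag2 (-0.93), Smc3 (-0.53), GFP against input for Stag3 (-0.31), Stag2 (-1.01), Nipbl (-0.42), IgG against input for Rec8 (0.55), Rad21 (-0.35), Stag2 (-1.22), Smc3 (-0.42). With normexp background correction, these changed sign: V5 against input for Rec8 (-0.073), Rad21 (-0.11), Stag1 (-0.085), IgG against input for Stag3 (-0.023), V5 against GFP for Stag3 (-0.0057), Stag2 (0.077). With quantile normalization, these lost their call: V5 against IgG for Stag3 (-0.13). With quantile normalization, these gained a call: V5 against IgG for Stag2 (0.73), V5 against input for Stag3 (-0.30), GFP against input for Rec8 (-0.34), IgG against input for Nipbl (-0.34), V5 against GFP for Rec8 (0.29). With quantile normalization, these changed sign: V5 against IgG for Smc3 (0.050), V5 against input for Rec8 (-0.047), Rad21 (-0.076), Stag1 (-0.075), GFP against input for Rad21 (-0.029), IgG against input for Stag3 (-0.17). With spike-in scaling, these lost their call: V5 against IgG for Rec8 (-0.20). With spike-in scaling, these gained a call: V5 against IgG for Stag1 (0.40), Stag2 (0.87), V5 against input for Stag3 (-0.71), Nipbl (-0.83), GFP against input for Rec8 (-0.65), IgG against input for Stag1 (-0.95), Nipbl (-1.22). With spike-in scaling, these changed sign: V5 against IgG for Stag3 (0.10), Smc3 (0.32), GFP against IgG for Stag3 (0.097), Smc3 (0.24), Nipbl (0.19), V5 against input for Rec8 (-0.42), Rad21 (-0.49), Stag1 (-0.55), GFP against input for Rad21 (-0.35), Stag1 (-0.29), IgG against input for Rec8 (-0.22), Stag3 (-0.81). With median scaling, these gained a call: V5 against IgG for Stag2 (0.56), IgG against input for Nipbl (-0.37). With median scaling, these changed sign: V5 against IgG for Smc3 (0.0046), V5 against input for Stag1 (-0.013). Without a filter on dim probes, these lost their call: V5 against IgG for Stag3 (-0.23), Rad21 (0.31), GFP against IgG for Stag1 (0.24), Stag2 (0.55), IgG against input for Rad21 (-0.25), Smc3 (-0.31). With probes well above background on all 8 arrays, these gained a call: V5 against IgG for Stag2 (0.54), IgG against input for Nipbl (-0.33), V5 against GFP for Rec8 (0.31). With the mean of all kept probes, these lost their call: GFP against IgG for Stag2 (0.12). With the mean of all kept probes, these gained a call: V5 against IgG for Stag1 (0.46), GFP against IgG for Smc3 (-0.51), V5 against input for Rec8 (0.23), Nipbl (-1.32), IgG against input for Stag1 (-0.83), Nipbl (-1.54). The Smc3 and Nipbl means include their second probes, which were not well above background in any precipitate. With the mean of all kept probes, these changed sign: GFP against IgG for Nipbl (0.028), V5 against input for Rad21 (-0.19), Stag1 (-0.37), GFP against input for Rad21 (-0.043), Stag1 (-0.19), V5 against GFP for Stag2 (0.16). With the compared groups alone, these lost their call: V5 against IgG for Stag3 (-0.23), Rad21 (0.31), GFP against IgG for Stag1 (0.24), Stag2 (0.55), IgG against input for Rad21 (-0.25), Smc3 (-0.31). With the compared groups alone, these gained a call: V5 against input for Nipbl (-0.28), GFP against input for Rec8 (-0.18). Within the slide, these lost their call: IgG against input for Rad21 (-0.25), Smc3 (-0.31). Without the 2 arrays of conflicting descriptions, these lost their call: V5 against IgG for Rec8 (-0.56), Stag3 (-0.17), Rad21 (0.25), GFP against IgG for Stag1 (0.24), Stag2 (0.55), V5 against input for Smc3 (-0.34), GFP against input for Stag3 (-0.26), IgG against input for Rad21 (-0.25), Smc3 (-0.30). Without the 2 arrays of conflicting descriptions, these changed sign: V5 against IgG for Stag1 (-0.0099), V5 against input for Rad21 (-0.0057), Stag1 (-0.041), V5 against GFP for Stag2 (0.072). For V5 against IgG, leaving out 1 array gave Stag3 -0.28 to -0.17, Rad21 0.20 to 0.42, Stag1 -0.0099 to 0.15, Stag2 0.23 to 0.86, Smc3 -0.13 to 0.10, Nipbl -0.13 to 0.23. For GFP against IgG, leaving out 1 array gave Stag1 0.19 to 0.29, Stag2 0.23 to 0.86, Smc3 -0.28 to -0.059, Nipbl -0.41 to -0.049. For V5 against input, leaving out 1 array gave Rad21 -0.0020 to 0.12, Stag1 -0.071 to 0.087, Smc3 -0.35 to -0.29, Nipbl -0.33 to -0.22. For GFP against input, leaving out 1 array gave Rec8 -0.20 to -0.15, Stag3 -0.27 to -0.21. For IgG against input, leaving out 1 array gave Rad21 -0.36 to -0.14, Smc3 -0.42 to -0.19, Nipbl -0.51 to -0.15. For V5 against GFP, leaving out 1 array gave Rec8 0.28 to 0.34, Stag2 -0.082 to 0.072, Nipbl 0.23 to 0.34. With normexp background correction, genes called numbered 0 for V5 against IgG (limma, 3694 at an unadjusted p under 0.05), 3223 for GFP against IgG, 5255 for V5 against input, 5703 for GFP against input, 6270 for IgG against input, 0 for V5 against GFP (limma, 801 at an unadjusted p under 0.05). With spike-in scaling, genes called numbered 5775 for V5 against IgG, 7969 for GFP against IgG, 388 for V5 against GFP. Without a filter on dim probes, genes called numbered 4 for V5 against GFP. With probes well above background on all 8 arrays, genes called numbered 3867 for V5 against GFP. With the compared groups alone, genes called numbered 2 for V5 against GFP. Without the 2 arrays of conflicting descriptions, genes called numbered 1240 for V5 against IgG, 4 for V5 against GFP. Leaving out 1 array gave 6040 to 10636 genes called in V5 against IgG. Leaving out 1 array gave 3 to 4999 genes called in V5 against GFP. With 2 arrays a group, leaving one out assumes that the lone array varies like the other groups. Signal over background limits the second Smc3 and Nipbl probes, which gave only bounds in the precipitates.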
